A study of Labeotropheus fuelleborni and Maylandia zebra with 12 samples.

Results

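Glycosyltransferases build the sugar chains of glycoproteins, proteoglycans and glycolipids, and glycan sulfotransferases add sulfate to those chains. Genes of both kinds were followed in RNA-seq counts from replacement teeth and taste bud-bearing oral epithelium of Lake Malawi cichlid fishes. Features were taken by the start of their names: galnt, b3galt, b3gnt, b4galt, gcnt, mgat, numbered fut and chst genes, st3gal, st6gal, st8sia, hs3st, hs6st, ndst, csgalnact, chsy, xylt, and ext1, ext2 or extl. The names selected 74 of the 26490 features, and 40 of the 74 had at least 15 counts over all libraries. The 4 groups were Labeotropheus fuelleborni tooth (replicates 0, 3 and 4), L. fuelleborni taste bud (replicates 1, 2 and 4), Metriaclima (Maylandia) zebra tooth (replicates 0, 1 and 3) and M. zebra taste bud (replicates 1, 2 and 3), with 3 libraries in each. Tooth samples were unerupted teeth pulled from crypts in the jaw bone, and taste bud samples were a thin ribbon of lower-jaw epithelium cut in front of the outer tooth row, towards the lip. All fish were untreated as far as the labels say; their age, sex and origin are not given there. The labels do not say whether replicates came from separate animals, so p-values reflect sample-to-sample spread at most, and some of it may be technical.

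Sugar chains are made in steps, and each step has its own enzymes. Mucin-type O-glycans begin when a galnt enzyme places N-acetylgalactosamine on serine or threonine, after which gcnt, b3gnt, b4galt and sialyltransferase enzymes branch, lengthen and cap the chain. Glycosaminoglycans begin with xylose, added by xylt enzymes, and continue as chondroitin or dermatan sulfate (csgalnact, chsy, chst) or as heparan sulfate (ext, extl, ndst). Chondroitin and dermatan sulfate proteoglycans are abundant in the matrix of teeth and bone, whereas mucin-type and fucosylated glycans are typical of wet epithelial surfaces.

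Totals were 111626 to 300663 counts per library in L. fuelleborni tooth, 147480 to 248332 in L. fuelleborni taste bud, 155864 to 196861 in M. zebra tooth and 72226 to 111155 in M. zebra taste bud. The 74 genes took 0.135% to 0.420% of these counts, so most of them were counted a few times per library, and 0 counts over the M. zebra taste bud group still allowed 12.1 CPM (counts scaled to library size). Tooth and bone matrix genes summed to 35151 tooth counts and 452 taste bud counts, and 12 of their 14 tested members were higher in tooth, with the lowest p for col1a1, phex, col1a2, sparc and col10a1. Oral keratinocyte genes summed to 1180 tooth counts and 4166 taste bud counts, and 11 of their 14 tested members were lower in tooth, with the lowest p for ppl, scel, evpl, pkp3 and tgm1. Of 18 genes that mark taste receptor cells, 10 were in the table and 7 had a count. The cation channel trpm5, with 733 tooth counts and 1320 taste bud counts, was lower in tooth, and the calcium-release channel itpr3, with 105 and 12, was higher in tooth, a call lost without the 3 libraries rich in ribosomal protein genes (edgeR adjusted p = 0.0584). Too sparse for the filtered test were plcb2, with 32 tooth counts and 2 taste bud counts, pou2f3, with 18 and 0, and calhm1, gnb3 and otop1, with 0 and 1 each, while calhm3, pkd2l1 and snap25 had none. One feature without a gene name, LOC105941146, took 0.0596% to 0.778% of counts in tooth and 11.9% to 26.4% in taste bud, and removing it changed no call among the glycan genes tested. Ribosomal protein genes took 1.41% to 6.63% of counts, most in L. fuelleborni taste bud 1, tooth 4 and taste bud 2. Where a call described below was lost without these 3 libraries, that is given beside it. For calls of a wider fit it is given together with the other fits that left out libraries.

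The tooth and taste bud libraries differed clearly in fut11, which was far lower in tooth, and in galnt2 and chst11, which were higher in tooth. Only 6 of the 74 genes had enough counts for the edgeR quasi-likelihood test on the 2962 genes kept by its expression filter, and 2 of these 6 (33.3%) passed an adjusted p of 0.05 for tooth over taste bud, against 52.8% of all genes tested. The filter can keep a gene through the groups where it is high. It kept galnt2 through tooth libraries and fut11 mainly through taste bud libraries, so being tested was not independent of the difference. To reach the rest, a wider edgeR fit took all 10760 features with at least 15 counts. Its p-values rest on a spread shared across features, so a gene's own spread between libraries did not enter them. In that fit 13 of the 40 genes (32.5%) were higher in tooth, against 23.2% of all features, and 1 of 40 (2.5%) was lower in tooth, against 9.71%. The 13 were b3gnt9, b4galt1, b4galt5, chst11, chst8, fut8, galnt1, galnt2, galnt8, gcnt4, st6gal2, st8sia1 and xylt1, and the 1 was fut11. There chst11, which the filter had left out, had a lower edgeR adjusted p than galnt2 (5.26e-07 against 2.95e-06).

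These calls differed in how much they leaned on single libraries. In 12 fits that each left out 1 library, b4galt1, chst11, fut8, galnt2, xylt1 and fut11 were called every time. The call of b3gnt9 was lost without L. fuelleborni tooth 4, and that of st6gal2 without L. fuelleborni tooth 4 or M. zebra tooth 3. The other 6 genes were called in 3 to 9 of the 12 fits. The number called higher in tooth fell to 7 without L. fuelleborni tooth 4, to 8 without L. fuelleborni taste bud 2, to 8 without M. zebra taste bud 3, and to 6 without the 3 libraries rich in ribosomal protein genes. Those 6 were b4galt1, chst11, chst8, galnt2 and xylt1 of the 13, and chsy1, so the calls of b3gnt9, b4galt5, fut8, galnt1, galnt8, gcnt4, st6gal2 and st8sia1 were lost there. No share over all features was taken for these fits with libraries left out.

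Ratios of summed counts, scaled by library size, lay mostly above 1. The ratio of tooth to taste bud was above 1 for 31 of the 40 genes, with a median log2 ratio of 1.44, against 65.3% and 0.63 over the 10760 features. Among features below the expression filter, it was above 1 for 28 of 34 genes (82.4%, median 1.51), against 69.8% and 0.77. Among genes tested with the filter, fitted fold changes were higher in tooth for 3 of 6 (50%, median log2 0.11), against 55.1% and 0.21. Genes without a taste bud count entered at a bound that sets 3 counts over that tissue and leaves out the counting error of the tooth count. The 95% interval of the ratio, which covers counting error only, lay above 1 for 23 of 40 genes (57.5%), against 39.4% of all features, and below 1 for 3 of 40 (7.5%), against 18.5%. Those 3 were fut11, galnt11 and chst7. Within each species, all 3 tooth libraries lay above all 3 taste bud libraries for 5 of 40 genes (chst11, fut8, galnt1, galnt2 and xylt1; 12.5% against 13.0% of all features). They lay below for 1 of 40 (fut11; 2.5% against 4.56%). In bulk tissue, fewer cells of a type and less RNA per cell cannot be told apart.

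**Figure D1:**
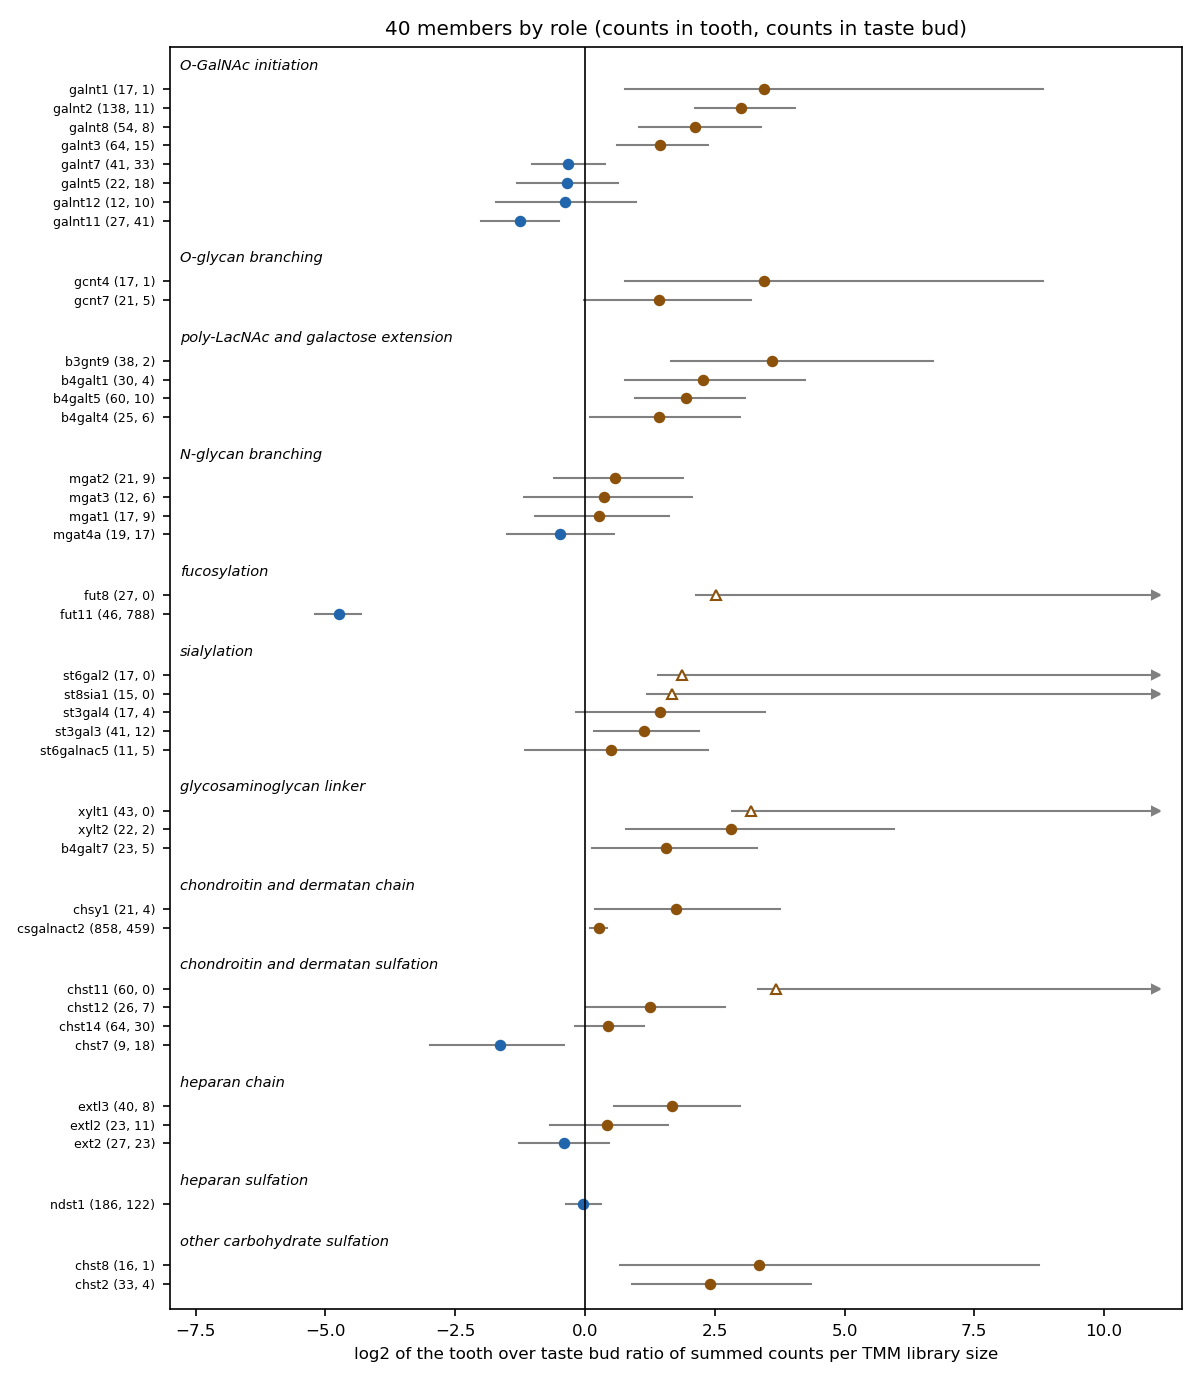
The log2 ratio of summed counts in tooth over taste bud is plotted for the 40 genes with at least 15 counts, grouped by the step they carry out, with bars for 95% counting intervals and open triangles for lower bounds where taste bud had 0 counts. Most points lie to the right of 0, and fut11 stands alone far to the left.

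Fucose-adding enzymes split in opposite directions. The gene fut11 belongs to the alpha-1,3-fucosyltransferase family. It had 5, 6 and 14 counts in L. fuelleborni tooth libraries and 96, 88 and 69 in L. fuelleborni taste bud libraries. In M. zebra it had 14, 6 and 1 counts in tooth and 228, 172 and 135 in taste bud. All 6 tooth libraries lay below all 6 taste bud libraries. Mean levels were 42.1 ± 0.936 CPM in L. fuelleborni tooth, 487 ± 66.8 CPM in L. fuelleborni taste bud, 38.0 ± 39.6 CPM in M. zebra tooth and 2308 ± 980 CPM in M. zebra taste bud (SD, n = 3 each). Over both species fut11 was 26.7-fold lower in tooth (95% counting interval 19.8 to 36.8), with a log2 fold change of -4.73 (SE 0.46, edgeR adjusted p = 4.33e-09). The log2 fold change was -3.51 within L. fuelleborni (SE 0.63, edgeR adjusted p = 8.59e-05) and -5.96 within M. zebra (SE 0.68, edgeR adjusted p = 3.84e-07).

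The other fucosyltransferase, fut8, adds the core fucose of N-glycans. It had 1, 1 and 16 counts in L. fuelleborni tooth and 3, 2 and 4 in M. zebra tooth, and no count in any of the 6 taste bud libraries. Every tooth library had at least 1 count, and 16 of the 27 counts came from L. fuelleborni tooth 4, the deepest library. The gene was at least 5.77-fold higher in tooth, counted against 3 counts over the taste bud libraries, and it passed in the wider fit (edgeR adjusted p = 0.00253), though not without the 3 libraries rich in ribosomal protein genes.

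Of the genes that supply activated fucose, only gmds, whose enzyme starts GDP-fucose synthesis, had enough counts for the filtered test. The other 4 with a count were sparse, with 4 tooth counts and 1 taste bud count for tsta3, the next enzyme of that route, 6 and 0 for the GDP-fucose transporter slc35c1, 5 and 1 for fpgt and 4 and 7 for fuk, both of the salvage route. The gene gmds had 6, 2 and 10 counts in L. fuelleborni tooth, 69, 208 and 211 in L. fuelleborni taste bud, with 2, 4 and 1 in M. zebra tooth and 14, 12 and 23 in M. zebra taste bud. All tooth libraries lay below all taste bud libraries. Like fut11, gmds was much lower in tooth, 33.5-fold over both species, with a log2 fold change of -4.47 (SE 0.47, edgeR adjusted p = 1.41e-08). Between tissues, oral keratinocyte genes had the same direction as fut11 and gmds. Their summed levels were 485 to 1352 CPM in L. fuelleborni tooth, 5057 to 7995 in L. fuelleborni taste bud, 729 to 986 in M. zebra tooth and 1358 to 4405 in M. zebra taste bud. Their part in the fut11 and gmds differences was not tested.

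**Figure D2:**
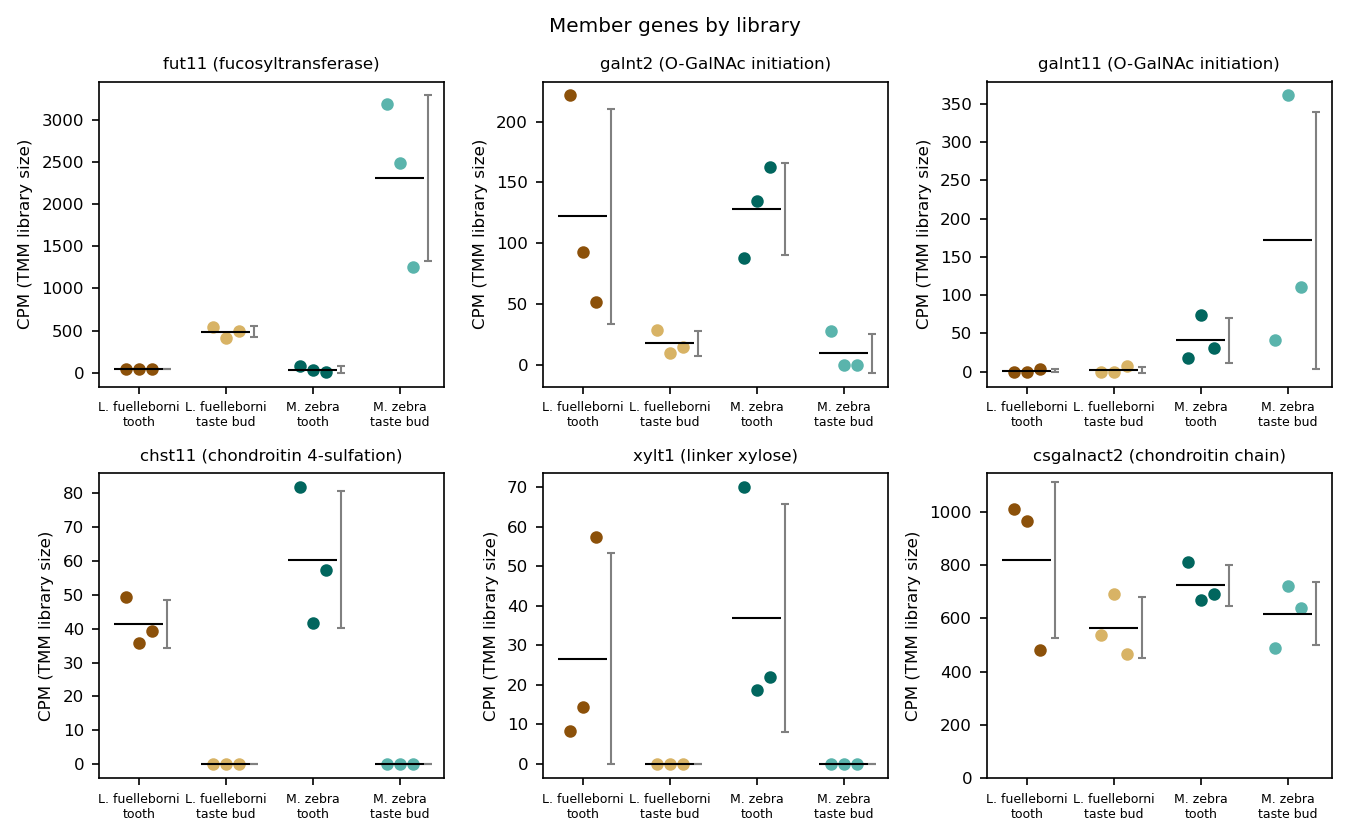
CPM (TMM library sizes) of fut11, galnt2, galnt11, chst11, xylt1 and csgalnact2 is plotted for each of the 12 libraries, with tooth left of taste bud in each species, a black line for the group mean and a grey bar for the SD (n = 3). The fut11 points are high in all 6 taste bud libraries, chst11 and xylt1 are at 0 there, galnt11 is near 0 in L. fuelleborni, and csgalnact2 overlaps between tissues.

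Enzymes that start O-GalNAc glycans were the largest set, with 14 genes in the table and 8 with at least 15 counts, and they had no shared direction. The clearest was galnt2, a widely acting initiator of mucin-type chains. It had 27, 13 and 17 counts in L. fuelleborni tooth and 5, 2 and 2 in L. fuelleborni taste bud. In M. zebra it had 15, 29 and 37 counts in tooth and 2, 0 and 0 in taste bud. All tooth libraries lay above all taste bud libraries within each species. The ratio of summed counts was 8.05 (4.36 to 16.5), with a log2 fold change of 3.28 (SE 0.62, edgeR adjusted p = 6.67e-05). The log2 fold change was 2.72 within L. fuelleborni (SE 0.77, edgeR adjusted p = 0.00590) and 3.85 within M. zebra (SE 0.98, edgeR adjusted p = 0.00264). The L. fuelleborni call was lost without L. fuelleborni tooth 0 (edgeR adjusted p = 0.0619) and without the 3 libraries rich in ribosomal protein genes (edgeR adjusted p = 0.0537). Leaving out M. zebra taste bud 1, the only one of its group with a galnt2 count, left that group at 0, and the fitted log2 fold change was then 5.07 over both species and 7.48 within M. zebra, values that depend on the model and are no bound.

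Another widely acting initiator, galnt1, had 1, 1 and 4 counts in L. fuelleborni tooth, 0, 1 and 0 in L. fuelleborni taste bud, with 5, 3 and 3 in M. zebra tooth and none in M. zebra taste bud. Its ratio of 10.9 had a counting interval of 1.71 to 456, and its wider-fit call (edgeR adjusted p = 0.0414) held in 4 of the 12 leave-one-out fits. The gene galnt8 had 54 tooth counts and 8 taste bud counts, a ratio of 4.33 (2.05 to 10.5), and was called in the wider fit (edgeR adjusted p = 0.0232). That call was lost without L. fuelleborni taste bud 1, L. fuelleborni taste bud 2 or M. zebra tooth 3. It was also lost without the 3 libraries rich in ribosomal protein genes.

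The gene galnt3, whose loss causes phosphate excess and tissue calcification in humans, had 2, 7 and 8 counts in L. fuelleborni tooth, 4, 3 and 1 in L. fuelleborni taste bud, with 18, 9 and 20 in M. zebra tooth and 2, 0 and 5 in M. zebra taste bud. Scaled to library size, the tissues overlapped in both species, in M. zebra through tooth 1 and taste bud 3. Its ratio was 2.74 (1.54 to 5.17), but it did not pass in the wider fit (edgeR adjusted p = 0.126). The remaining 3 initiators had ratios whose intervals contained 1: 0.797 for galnt7 (0.492 to 1.30), 0.784 for galnt5 (0.401 to 1.55) and 0.770 for galnt12 (0.305 to 1.99). None of these 3 was called in the wider fit.

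The last initiator, galnt11, separated the species rather than the tissues. In mammals and frogs galnt11 is known to glycosylate the Notch receptor. It had 0, 0 and 1 counts in L. fuelleborni tooth and 3, 16 and 7 in M. zebra tooth, and 0, 0 and 1 counts in L. fuelleborni taste bud against 3, 25 and 12 in M. zebra taste bud. All L. fuelleborni libraries lay below all M. zebra libraries in both tissues, which held for 1 of the 40 genes (2.5%) and for 0.678% of all features with at least 15 counts. Over both tissues L. fuelleborni had 2 counts and M. zebra 66, so that galnt11 was 42.8-fold lower in L. fuelleborni (11.4 to 361). The table counts both species on 1 set of features, and whether reads of both species were assigned to a feature equally well was not tested, a limit on this and every other difference between species.

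In the test of species within taste bud, 2 of the 6 tested genes passed, against 4.29% of all genes, and both were lower in L. fuelleborni. The expression filter had kept galnt11 through M. zebra libraries alone, so its place among the 6 depended on the species where it was high. For galnt11 the log2 fold change of L. fuelleborni over M. zebra was -5.97 (SE 1.11, edgeR adjusted p = 0.00164). Within tooth it was -4.15 (SE 1.18) and missed the threshold (edgeR adjusted p = 0.0785). None of the 6 passed within tooth, where 1.52% of all genes did and where 1 of the 6 had an unadjusted p under 0.05. In the wider fit galnt11 passed in tooth as well (edgeR adjusted p = 0.0148; 1.42% of all features called), as it did with limma-voom. In taste bud the wider fit called galnt11 and fut11, 2 of the 40 genes, against 2.45% of all features. The filtered taste bud call of galnt11 was lost without M. zebra taste bud 2 (edgeR adjusted p = 0.0550) and without the 3 libraries rich in ribosomal protein genes (edgeR adjusted p = 0.117).

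Within M. zebra galnt11 was lower in tooth than in taste bud, with a log2 fold change of -2.01 (SE 0.76, edgeR adjusted p = 0.0346). Along with fut11 and galnt2 it made 3 of 6 tested glycan genes past the threshold there, against 42.6% of all genes. The tooth and taste bud values overlapped, and the call was lost with RLE size factors (edgeR adjusted p = 0.0538), with DESeq2 (adjusted p = 0.0782) and without M. zebra tooth 0, tooth 3 or taste bud 2 (edgeR adjusted p = 0.140, 0.163 and 0.450). In L. fuelleborni, 2 of 6 passed between tissues, against 38.6% of all genes, and galnt11 was too sparse to compare, with 1 count in each tissue.

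The second gene past the threshold between species in taste bud was fut11. Its 3 L. fuelleborni taste bud libraries had 549, 416 and 496 CPM and its 3 M. zebra taste bud libraries 3188, 2485 and 1252 CPM, without overlap. The log2 fold change was -2.24 (SE 0.55, edgeR adjusted p = 0.0155). The call was lost without L. fuelleborni taste bud 2 (edgeR adjusted p = 0.0808), M. zebra taste bud 1 (0.101) or M. zebra taste bud 2 (0.0790), and without the 3 libraries rich in ribosomal protein genes (0.142). In tooth, fut11 had 41.1, 42.9 and 42.3 CPM in L. fuelleborni and 81.7, 27.8 and 4.40 CPM in M. zebra, and the log2 fold change was 0.21 (95% interval -1.11 to 1.52). The species difference in the tissue effect of fut11 was 2.45 on the log2 scale (SE 0.87) and did not pass over all genes (edgeR adjusted p = 0.480). No gene of the 2962 passed that test in edgeR, 0 did in DESeq2 and 1 in limma-voom, while 228 genes had an unadjusted edgeR p under 0.05.

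The sugar-donor gene gmds differed the other way between species in taste bud, with 394, 983 and 1516 CPM in L. fuelleborni and 196, 173 and 213 CPM in M. zebra. It was higher in L. fuelleborni by 2.30 on the log2 scale (SE 0.56, edgeR adjusted p = 0.0134), a call lost without M. zebra taste bud 1, 2 or 3 (edgeR adjusted p = 0.0779, 0.0779 and 0.0550). Oral keratinocyte genes, at 5057 to 7995 CPM in L. fuelleborni taste bud against 1358 to 4405 CPM in M. zebra taste bud as summed levels, also did not overlap between these groups. They were higher in L. fuelleborni, the direction of gmds and the opposite of fut11, and their part in either difference was not tested.

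**Figure D3:**
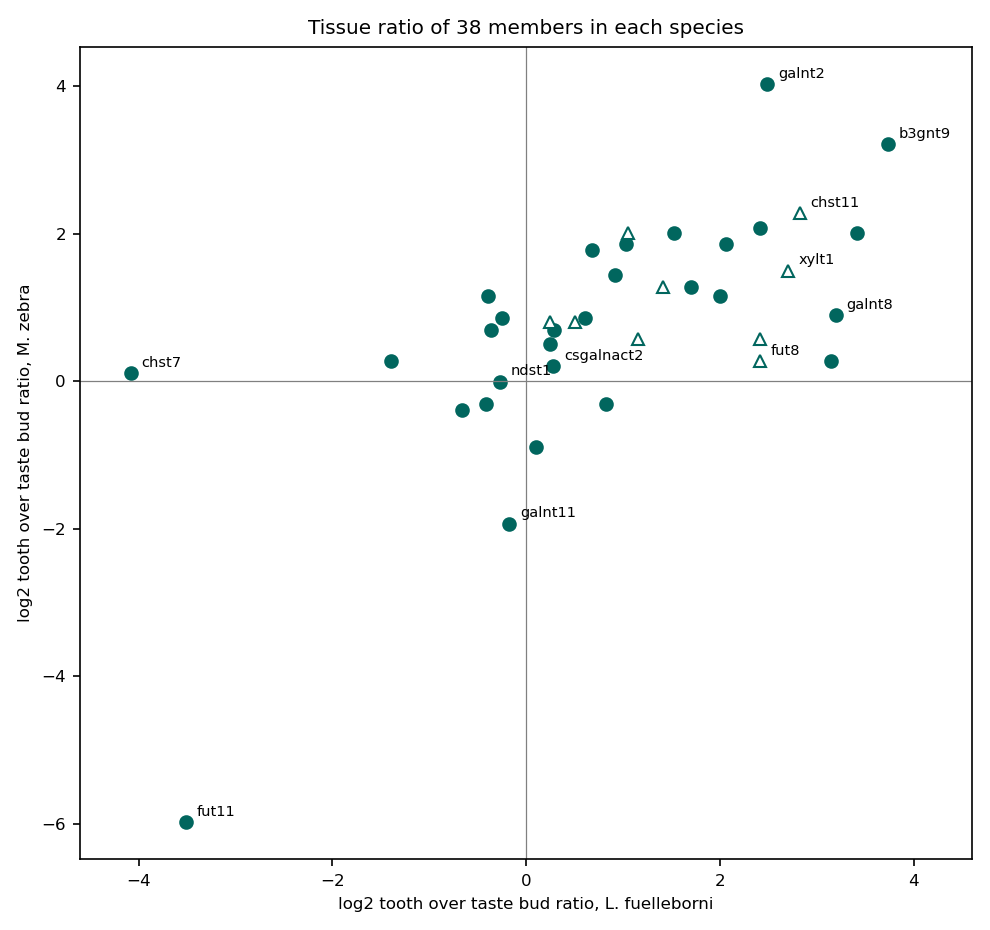
The log2 ratio of summed counts in tooth over taste bud is plotted for L. fuelleborni against M. zebra for 38 of the 40 genes, with open triangles where 1 or both values are bounds (9 genes). In 31 genes both ratios have the same sign, 26 of them higher in tooth, and fut11 lies far from the rest at the lower left. Bounds can lie only on the higher-in-tooth side.

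Of the 38 genes in the plot of tissue ratios by species, 31 had the same sign in L. fuelleborni and M. zebra, 26 higher in tooth and 5 lower (ext2, fut11, galnt11, mgat4a and ndst1). Bounds stood in for 0 taste bud counts and were kept only above 1. They could therefore read only as higher in tooth (9 genes). In L. fuelleborni galnt11 had 1 count in each tissue, and in M. zebra the ndst1 ratio was 0.999. No share over all features was taken for these sign counts. Opposite signs were seen for chst14, chst7, galnt12, galnt5, galnt7, mgat1 and mgat3. The widest of these was chst7, a chondroitin 6-O-sulfotransferase. It had 0, 0 and 1 counts in L. fuelleborni tooth, 1, 8 and 6 in L. fuelleborni taste bud, with 0, 3 and 5 in M. zebra tooth and 0, 1 and 2 in M. zebra taste bud. Scaled to library size, all L. fuelleborni tooth libraries lay below all L. fuelleborni taste bud libraries, and the M. zebra tissues overlapped. In the wider fit it was lower in tooth within L. fuelleborni (log2 fold change -3.82, SE 1.25, edgeR adjusted p = 0.0159), where 7 of the 40 genes and 20.8% of all features were called. The chst7 call was lost without L. fuelleborni taste bud replicate 2 (edgeR adjusted p = 0.0947), without replicate 4 of that group (edgeR adjusted p = 0.0516), and once the 3 libraries richest in ribosomal protein counts were left out (edgeR adjusted p = 0.0673). Neither chst7 nor any other of the 40 passed the wider fit's test of the species difference itself, which called 2 of the 10760 features (0.0186%). In M. zebra the wider fit called 6 of the 40 genes, against 16.6% of all features.

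Enzymes that branch O-glycans or extend glycan chains had ratios of tooth to taste bud above 1 in all 6 genes with at least 15 counts. The share above 1 over all features with at least 15 counts was 65.3%. The branching enzyme gene gcnt4 had 17 tooth counts and 1 taste bud count, and gcnt7 had 21 and 5. The gene gcnt4, which makes core 2 branches, was called in the wider fit (edgeR adjusted p = 0.0408), a call kept in 5 of the 12 leave-one-out fits. For gcnt7 the ratio was 2.69 (0.989 to 9.14; edgeR adjusted p = 0.112), and all 5 of its taste bud counts were in L. fuelleborni taste bud 4.

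The galactosyltransferase b4galt1 puts galactose on N-acetylglucosamine, an extension shared by many glycoproteins. It had 5, 1 and 6 counts in L. fuelleborni tooth, 2, 2 and 0 in L. fuelleborni taste bud, with 7, 4 and 7 in M. zebra tooth and none in M. zebra taste bud. The groups overlapped in L. fuelleborni and not in M. zebra. The ratio was 4.81 (1.70 to 18.8) and the wider fit gave a log2 fold change of 3.31 (SE 1.12, edgeR adjusted p = 0.0131).

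Its relative b4galt5, which makes lactosylceramide in mice, had 60 tooth counts and 10 taste bud counts, a ratio of 3.85 (1.95 to 8.43; edgeR adjusted p = 0.0286 in the wider fit). Of the 60 tooth counts 24 came from L. fuelleborni tooth 4, and the call was lost without that library, L. fuelleborni taste bud 2, M. zebra tooth 1 or M. zebra taste bud 3. Leaving out the 3 libraries rich in ribosomal protein genes also lost the b4galt5 call. The gene b3gnt9, named as an N-acetylglucosaminyltransferase, had 0, 2 and 13 counts in L. fuelleborni tooth, 0, 1 and 0 in L. fuelleborni taste bud, with 4, 9 and 10 in M. zebra tooth and 0, 0 and 1 in M. zebra taste bud. Only the M. zebra groups were free of overlap. Its ratio was 12.2 (3.15 to 104; edgeR adjusted p = 0.00580 in the wider fit), and b4galt4, another galactosyltransferase, had a ratio of 2.67 (1.07 to 7.97) and was not called (edgeR adjusted p = 0.165).

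None of the 4 genes of N-glycan branching with at least 15 counts was called in the wider fit. Counts in tooth and taste bud were 17 and 9 for mgat1, which opens the first complex branch, 21 and 9 for mgat2, which opens the second, 12 and 6 for mgat3, which adds the bisecting residue, and 19 and 17 for mgat4a, which adds a further branch. Ratios ran between 0.717 for mgat4a (0.353 to 1.47) and 1.50 for mgat2 (0.657 to 3.71). All 4 intervals contained 1, so a difference was not detectable at this depth.

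Sialyltransferases, which cap chains with sialic acid, had ratios above 1 in all 5 genes with at least 15 counts, st6gal2 and st8sia1 as bounds. Of all features with at least 15 counts, 65.3% lay above 1. No taste bud count was found for st6gal2, which makes alpha-2,6 links on galactose, with 0, 0 and 4 counts in L. fuelleborni tooth and 1, 4 and 8 in M. zebra tooth, or for st8sia1, the GD3 ganglioside synthase, with 0, 1 and 2 and with 3, 6 and 3. Both were called in the wider fit, st6gal2 at least 3.63-fold higher in tooth (edgeR adjusted p = 0.0222) and st8sia1 at least 3.21-fold higher (edgeR adjusted p = 0.0321). Some L. fuelleborni tooth libraries also had no count, so the tissues did not separate in that species. The st8sia1 call held in 4 of the 12 leave-one-out fits.

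The alpha-2,3-sialyltransferases st3gal3 and st3gal4 had ratios of 2.19 (1.13 to 4.58) and 2.73 (0.889 to 11.1) and were not called (edgeR adjusted p = 0.107 and 0.341 in the wider fit). The ganglioside enzyme st6galnac5, with 11 tooth counts and 5 taste bud counts, had a ratio of 1.41 (0.452 to 5.18) and was not called either.

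Among genes of sialic acid supply, gne encodes the enzyme that starts the synthesis and was lower in tooth. It had 9, 11 and 16 counts in L. fuelleborni tooth, 105, 135 and 26 in L. fuelleborni taste bud, with 6, 8 and 11 in M. zebra tooth and 63, 186 and 250 in M. zebra taste bud, without overlap between tissues in either species. It was 19.6-fold lower in tooth, with a log2 fold change of -4.22 (SE 0.42, edgeR adjusted p = 6.61e-09). Between species in taste bud gne was lower in L. fuelleborni by a log2 fold change of -2.04 (SE 0.52, edgeR adjusted p = 0.0200), with 600, 638 and 187 CPM in L. fuelleborni and 881, 2687 and 2318 CPM in M. zebra. That call was lost without L. fuelleborni taste bud 4 (edgeR adjusted p = 0.0913), M. zebra taste bud 2 (0.137) or M. zebra taste bud 3 (0.0780), and without a filter on low counts (0.0551). The CMP-sialic acid transporter slc35a1, with 55 tooth counts and 72 taste bud counts, did not pass between tissues (log2 fold change -0.84, edgeR adjusted p = 0.140). The sialic acid phosphatase gene nanp, too sparse for the filtered test, had 43 tooth counts and 17 taste bud counts (ratio 1.62, 0.906 to 3.03).

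**Figure D4:**
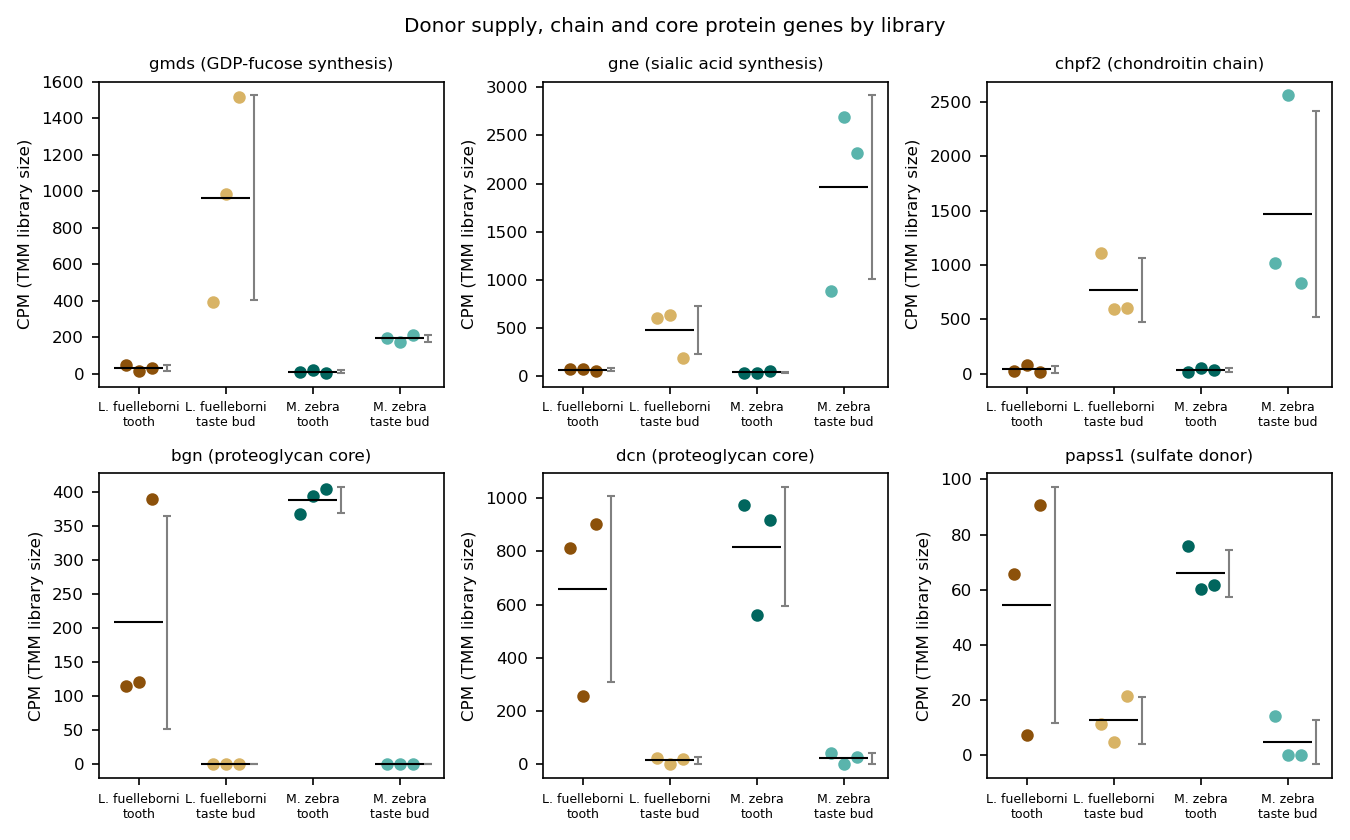
CPM (TMM library sizes) is plotted by library for the donor genes gmds, gne and papss1, the chondroitin chain gene chpf2 and the proteoglycan cores bgn and dcn, with tooth left of taste bud in each species, a black line for the group mean and a grey bar for the SD (n = 3). The genes gmds, gne and chpf2 are high in taste bud, and bgn and dcn are high in tooth and at or near 0 in taste bud.

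Glycosaminoglycan chains start with xylose on a core protein, and both xylosyltransferases leaned to tooth. The gene xylt1 had 1, 2 and 19 counts in L. fuelleborni tooth and 12, 4 and 5 in M. zebra tooth, with no count in any taste bud library. All tooth libraries had at least 1 count, and 19 of the 43 came from L. fuelleborni tooth 4. It was at least 9.19-fold higher in tooth, with a wider-fit edgeR adjusted p of 4.47e-05. For xylt2, with 22 tooth counts and 2 taste bud counts, the ratio was 7.06 (1.73 to 61.9) and the wider fit fell short (edgeR adjusted p = 0.0611). The next enzyme of the linker, b4galt7, had 23 counts in tooth, 13 of them in L. fuelleborni tooth 4, and 5 in taste bud (ratio 2.95, 1.10 to 9.94; edgeR adjusted p = 0.255).

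Among sulfotransferases of chondroitin and dermatan, chst11 stood out. It encodes a chondroitin 4-O-sulfotransferase needed for cartilage growth in mice. It had 6, 5 and 13 counts in L. fuelleborni tooth and 14, 9 and 13 in M. zebra tooth, and 0 in all 6 taste bud libraries. Tooth levels were 49.3, 35.8 and 39.2 CPM in L. fuelleborni and 81.7, 41.8 and 57.1 CPM in M. zebra, so all 6 tooth libraries lay above the taste bud libraries. It was at least 12.8-fold higher in tooth, with a wider-fit edgeR adjusted p of 5.26e-07. Together with xylt1, fut8, st6gal2 and st8sia1 it made 5 of 40 genes (12.5%) without a taste bud count, against 5.52% of all features with at least 15 counts. Taste bud libraries held fewer counts in all, and for each of the 5 genes the bound takes that depth into account.

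Tooth and bone matrix genes had the same direction between tissues as chst11 and xylt1. Their summed levels in L. fuelleborni were 8746 to 42813 CPM in tooth and 350 to 510 CPM in taste bud. In M. zebra they were 19603 to 37182 CPM in tooth and 332 to 1552 CPM in taste bud. Cartilage genes summed to 205 to 423 CPM in L. fuelleborni tooth, 23.6 to 64.6 in L. fuelleborni taste bud, 334 to 414 in M. zebra tooth and 0 to 37.1 in M. zebra taste bud. Of their 431 tooth counts 331 came from col11a1, the 1 member tested, and 59 from matn4, while comp had 8 tooth counts and 9 taste bud counts, matn3 3 and 2, acan 3 and 1, and ucma 0 and 1. The part of these markers in the chst11 and xylt1 differences was not tested.

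The other chondroitin and dermatan sulfotransferases did not pass over both species. Dermatan 4-O-sulfotransferase, chst14, was counted often enough for the filtered test, with 64 tooth counts and 30 taste bud counts. Its CPM ranges overlapped, at 12.1 to 92.3 in tooth and 14.4 to 64.9 in taste bud. The log2 fold change was 0.43 (95% interval -0.62 to 1.48, edgeR adjusted p = 0.522) and ran between 0.04 and 0.79 when single libraries were left out. For chst12, a second chondroitin 4-O-sulfotransferase, counts were 26 and 7 in tooth and taste bud (ratio 2.38, 1.01 to 6.50; edgeR adjusted p = 0.260 in the wider fit), and for chst7 the difference over both species fell short (edgeR adjusted p = 0.0977 in the wider fit).

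The chondroitin chain itself is begun by csgalnact2, which adds the first N-acetylgalactosamine of the chain. It had 123, 135 and 160 counts in L. fuelleborni tooth, 94, 146 and 65 in L. fuelleborni taste bud, with 139, 144 and 157 in M. zebra tooth and 35, 50 and 69 in M. zebra taste bud. In levels this came to 771 ± 198 CPM in tooth and 591 ± 108 CPM in taste bud (SD, n = 6 each), with overlap in both species. The log2 fold change of 0.38 was not called (95% interval -0.24 to 1.00, edgeR adjusted p = 0.325), although the counting interval of its ratio of 1.20 (1.07 to 1.35) excluded 1. Counts of the chain polymerase chsy1 were 21 in tooth and 4 in taste bud, 3 of the 4 in L. fuelleborni taste bud 1 (ratio 3.37, 1.14 to 13.5; edgeR adjusted p = 0.0554 in the wider fit).

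A further gene of the chondroitin-chain family, chpf2, fell outside the names followed here and differed strongly. It had 3, 11 and 7 counts in L. fuelleborni tooth, 194, 127 and 84 in L. fuelleborni taste bud, with 3, 12 and 9 in M. zebra tooth and 73, 177 and 90 in M. zebra taste bud. All tooth libraries lay below all taste bud libraries, and chpf2 was 25.8-fold lower in tooth, with a log2 fold change of -4.75 (SE 0.46, edgeR adjusted p = 3.77e-09). Of the 3 glycosaminoglycan enzymes tested from a list of such genes, 2 were higher in tooth. One was cemip, which takes part in hyaluronan breakdown (57 tooth counts and 0 taste bud counts, at least 12.2-fold higher, edgeR adjusted p = 6.47e-05). The other was dse, an epimerase that turns chondroitin into dermatan sulfate (ratio 4.62, edgeR adjusted p = 0.00904). The dse call was lost without the 3 libraries rich in ribosomal protein genes (edgeR adjusted p = 0.0628). The gene dsel, named as a relative of dse, was too sparse for the filtered test and ran the other way. It had 9 tooth counts and 23 taste bud counts (ratio 0.251, 0.102 to 0.563).

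In a list of proteoglycan core proteins, 5 of 6 tested genes were higher in tooth, while 52.8% of all genes tested were called in either direction. Not all of these cores carry mainly chondroitin or dermatan sulfate. The decorin gene dcn had 99, 36 and 299 counts in L. fuelleborni tooth, 4, 0 and 3 in L. fuelleborni taste bud, with 167, 121 and 209 in M. zebra tooth and 3, 0 and 3 in M. zebra taste bud, a ratio of 45.9 (26.7 to 86.6; log2 fold change 5.28, SE 0.55, edgeR adjusted p = 1.29e-08). Biglycan, bgn, had 14, 17 and 129 counts in L. fuelleborni tooth, 63, 85 and 92 in M. zebra tooth and none in taste bud, and was higher in tooth by at least 85.5-fold (edgeR adjusted p = 1.68e-08). Neither gene overlapped between tissues. Lumican (lum, 522 and 2 counts in tooth and taste bud), perlecan (hspg2, 80 and 2) and serglycin (srgn, 145 and 22) were the other 3 called, and syndecan 3 (sdc3) was not (edgeR adjusted p = 0.177). Without the 3 libraries rich in ribosomal protein genes the srgn call was lost (edgeR adjusted p = 0.109).

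None of the heparan sulfate genes followed here with at least 15 counts was called between tissues. Other genes that modify this chain fell outside the names and were too sparse for the filtered test. Their ratios were 24.4 for sulf1 (4.12 to 988), 14.8 for glce (2.40 to 608) and 8.34 for hs2st1 (1.25 to 354). Sparse genes of chain breakdown leaned either way, such as 7 tooth counts and 6 taste bud counts for hpse and 11 and 2 for sgsh. The gene ndst1, whose product removes acetyl groups and adds sulfate to the young chain, had 90.3, 157 and 112 CPM in L. fuelleborni tooth, 40.0, 142 and 273 CPM in L. fuelleborni taste bud, with 140, 213 and 202 CPM in M. zebra tooth and 69.9, 275 and 213 CPM in M. zebra taste bud. Taste bud libraries spread more widely than tooth libraries, and the tissues overlapped in both species. The log2 fold change was -0.17 (95% interval -1.01 to 0.68, edgeR adjusted p = 0.774), and its sign changed with RLE size factors, where it was 0.04. The polymerase gene ext2 had 27 tooth counts and 23 taste bud counts (ratio 0.753, 0.416 to 1.37).

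The chain starter extl3 had 40 tooth counts and 8 taste bud counts, a ratio of 3.21 (1.48 to 7.93), and extl2, which acts on the linker, 23 and 11 counts (ratio 1.34, 0.628 to 3.05). In the wider fit neither of these nor ext2 was called (edgeR adjusted p = 0.105 for extl3, 0.532 for extl2 and 0.384 for ext2). For extl3, M. zebra tooth libraries had 7, 7 and 8 counts against 0, 1 and 3 in M. zebra taste bud, while L. fuelleborni tooth had 0, 5 and 13 against 3, 1 and 0 in L. fuelleborni taste bud, so only M. zebra tissues were apart.

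Sulfotransferases that act on other chains were counted little. The N-acetylglucosamine 6-O-sulfotransferase chst2 had 2, 0 and 10 counts in L. fuelleborni tooth, 1, 0 and 1 in L. fuelleborni taste bud, with 9, 9 and 3 in M. zebra tooth and 0, 2 and 0 in M. zebra taste bud. Its ratio was 5.29 (1.88 to 20.6) and it fell just short in the wider fit (edgeR adjusted p = 0.0566). The N-acetylgalactosamine 4-O-sulfotransferase chst8 had 16 tooth counts and 1 taste bud count (ratio 10.3, 1.59 to 430) and was called (edgeR adjusted p = 0.0347), but only in 3 of the 12 leave-one-out fits.

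The gene papss1 encodes an enzyme, though not the only one known, that makes the sulfate donor used by all these sulfotransferases. It had 8, 1 and 30 counts in L. fuelleborni tooth, 2, 1 and 3 in L. fuelleborni taste bud, with 13, 13 and 14 in M. zebra tooth and 1, 0 and 0 in M. zebra taste bud. The groups were apart in M. zebra, and L. fuelleborni tooth 3 lay among the taste bud libraries. The gene was higher in tooth by a ratio of 7.24 (3.35 to 18.6; log2 fold change 2.99, SE 0.74, edgeR adjusted p = 0.00119), a call lost without the 3 libraries rich in ribosomal protein genes (edgeR adjusted p = 0.0613). The gene bpnt1, whose enzyme clears spent donor in the cytosol, was also higher in tooth over both species (ratio 2.87, edgeR adjusted p = 0.0106). Within L. fuelleborni it passed (log2 fold change 2.60, SE 0.69, edgeR adjusted p = 0.00365; 0.0625 without the 3 libraries), and within M. zebra, where the tissues overlapped, it did not (log2 fold change 0.41, SE 0.69, edgeR adjusted p = 0.672). The difference between these 2 effects did not pass (edgeR adjusted p = 0.636). In the list of donor supply genes, 6 were tested, of which papss1 and bpnt1 were higher in tooth, gmds and gne lower, and ugdh and slc35a1 not called. Too sparse for the filtered test was impad1, whose enzyme clears spent donor in the Golgi, where glycans are sulfated. It had 36 tooth counts and 3 taste bud counts (ratio 7.70, 2.43 to 39.1).

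Of the 74 genes, 28 had 1 to 14 counts and 6 had none. The 6 were b3galt6, chst1, fut7, galnt13, mgat4c and st8sia3. Among the sparse genes, st3gal5, the GM3 ganglioside synthase, had 13 tooth counts and 0 taste bud counts, chst3, a chondroitin 6-O-sulfotransferase, had 8 and 0, and st3gal2 had 6 and 0. A few ran the other way, with 4 tooth counts and 9 taste bud counts for galnt14 and 0 and 5 for mgat4d. No ratio is given for these genes, which were chosen for mention after their counts were seen.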

How the data were processed

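Per the labels' protocols, polyadenylated RNA of 12 samples went into strand-preserving libraries read on a HiSeq sequencer. The authors deposited raw read counts per gene feature, without normalization, and whole-number values with unequal totals were checked. Tools listed in the submitters' processing notes are, for the statistics, limma 3.20.9 and edgeR 3.6.8, and otherwise HTSeq 0.6.1, TopHat2 2.0.9 and SAMtools 0.19. Build, annotation and strand setting were not given in any source used, so reads of overlapping or antisense genes, or of near-identical copies, cannot be told apart. No sequence is shown.

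Counts were analysed in R 4.3.3 with edgeR 4.0.16 (filterByExpr with a minimum count of 10, TMM, quasi-likelihood test of 4 group means, two-sided). P-values were adjusted over all genes of a contrast (Benjamini-Hochberg, threshold 0.05). The fit on 10760 features with at least 15 counts was added after seeing the data, since the filter kept 6 of the glycan genes. It tests more and sparser features, so p-values of the 2 fits are not on 1 footing. In the wider fit they equal those of a normal distribution for fold change over SE, as with a fully shared spread. A gene's own spread between libraries therefore did not enter its wider-fit p-value. Ratios are summed counts over summed TMM library sizes with 95% exact (Clopper-Pearson) intervals, which cover counting error only. Bounds set 3 counts over the group or tissue at 0 and take the other count as observed, without its counting error. They can therefore exceed the lower limit of the exact interval. The SE of an edgeR fold change was derived from the fold change and its F statistic. The 95% interval of a fold change applies a normal quantile to that SE, so both are approximate. A fitted fold change of a gene at 0 in a group is not a bound. Levels were not compared between genes, since lengths are not in the table.

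Alternatives were RLE size factors, DESeq2 1.42.0, no filter, leaving out each library, limma-voom (limma 3.58.1) without and with a replicate block, leaving out LOC105941146, and leaving out 3 libraries rich in ribosomal protein genes. The genes and the 13 lists beside them were chosen with earlier results of these data known, and the taste receptor list was added last. Every glycan gene with at least 15 counts is named, and list genes are named where they passed between tissues, at most 5 a list, taken by lowest p. Further list genes that did not pass or were too sparse were chosen after their values were seen. They were donor supply, glycosaminoglycan, taste receptor, mucin and mucous cell, cartilage, muscle, endothelium and immune genes. Pairs of libraries within a group differed by more than sampling noise (chi-square per degree of freedom 2.81 to 17.6). The scripts were tested on simulated data of the genes kept by the expression filter, with a spread set by count level. The wider fit on sparser features was not simulated.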

Additional observations from a re-analysis of the deposited data

How the results depend on the processing

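Of the 6 glycan genes tested for tooth over taste bud, 2 passed. The number was 12 of 40 without a filter on low counts, where 3327 of 20692 features were called. It was 14 over features with at least 15 counts (an alternative chosen after seeing the data) and 2 to 4 when each library was left out. In L. fuelleborni 2 passed, against 7 without a filter, 7 over features with at least 15 counts, 1 without the 3 libraries rich in ribosomal protein genes and 2 to 3 with a library left out. In M. zebra 3 passed, against 5, 6 and 2 to 4 under the same changes without the ribosomal one. Between species in tooth 0 passed, against 1 (galnt11) without a filter, over features with at least 15 counts and with limma-voom, and 0 to 1 with a library left out. Between species in taste bud 2 passed, against 0 without the 3 libraries and 0 to 2 with a library left out. Over features with at least 15 counts, 13 genes were higher in tooth, against 6 without the 3 libraries, 16 with RLE size factors and 7 to 12 with a library left out, while fut11 alone was lower in each of these fits. No share over all features was taken for these alternatives. More genes enter the test in the wider fits and in most fits with fewer libraries, so counts of calls are not like for like.

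The sign of ndst1 between tissues was not stable: its log2 fold change was -0.17, against 0.0421 with RLE size factors, 0.0417 with DESeq2, 0.0788 with limma-voom, 0.0725 with its replicate block and -0.43 to 0.12 with a library left out (above 0 without L. fuelleborni taste bud 4), and the cause was not tested. Calls over all genes between tissues numbered 1564, against 3327 without a filter and 3545 over features with at least 15 counts. In L. fuelleborni they numbered 1142, against 1881, 2238 and 744 without the 3 libraries. Between species they numbered 45 in tooth (124 and 153 in the 2 wider fits) and 127 in taste bud (229 and 264). The species difference in the tissue effect called 0 genes, against 2 in each wider fit, 1 with limma-voom and 18 without the 3 libraries, none a glycan gene.

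Libraries of the same number in both tissues of a species correlated at -0.0075, 0.0524 and 0.236 in their deviations from the group means, 2 of them under the 0.1 set for a pairing, so the number was not taken as a pairing. The labels do not say whether such tissues share an animal. With the number as a block (consensus correlation 0.0952) limma-voom called the same numbers of glycan genes as without it. Depth limits the sparse genes, whose ratios have wide counting intervals, such as 1.71 to 456 for galnt1.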

Other observations

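Beside the glycan genes followed above, 2 lists of related enzymes were counted. Of 6 tested genes of N-glycan assembly and trimming, ddost (a subunit of the oligosaccharyltransferase that transfers the ready-made chain, 167 counts in tooth and 15 in taste bud, edgeR adjusted p = 0.000359) and prkcsh (glucosidase II beta, 140 and 29 counts, edgeR adjusted p = 0.0104) were higher in tooth. Another oligosaccharyltransferase subunit, rpn1, was lower in tooth (72 and 100 counts, edgeR adjusted p = 0.0181; 0.0526 without M. zebra tooth 1, 0.0734 without M. zebra tooth 3, 0.0501 with RLE size factors and 0.0659 without a filter), and alg1, stt3a and ganab were not called. Among other O-glycan enzymes 2 were tested. The collagen galactosyltransferase colgalt1 was higher in tooth, with 435 counts there and 95 in taste bud (ratio 2.94, 2.35 to 3.71; edgeR adjusted p = 0.00442, and 0.0879 without the 3 libraries rich in ribosomal protein genes), and ogt was not called (edgeR adjusted p = 0.257). Of mucin and mucous cell genes only creb3l1 could be tested and it was not called (edgeR adjusted p = 0.430). The sparse mucin gene muc15 had 2 tooth counts and 16 taste bud counts (ratio 0.0802, 0.00894 to 0.341). Counts in tooth and taste bud were 16 and 2 for foxa2, 2 and 0 for agr2 and 0 and 1 for muc1. The other groups of marker genes had 1 or 2 tested members each: actn3 of skeletal muscle was lower in tooth (a call lost without L. fuelleborni taste bud 4, edgeR adjusted p = 0.0526), col11a1 of cartilage and cldn5 of endothelium were higher, and cd74 of immune cells and ryr3 of muscle were not called. These single genes do not stand for their groups, whose sparser members differed in direction. In muscle, mybpc2 had 36 tooth counts and 1 taste bud count, mylpf 19 and 4 and atp2a1 7 and 6. In endothelium, plvap had 23 and 40 and kdr 39 and 1. Of immune cell genes, lcp1 had 51 and 12, csf1r 23 and 2, spi1 20 and 0 and cd3e 0 and 1.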
